A study of Homo sapiens with 10 samples.

Results

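The long runs of zinc finger genes on human chromosome 19 are known as the KRAB zinc finger clusters, and 6 intervals of the hg19 build that hold them were described here, numbered along the chromosome. Cluster 1 is chr19:11700001-12700000, cluster 2 is chr19:19800001-24400000 and cluster 3 is chr19:36700001-38300000. Cluster 4 is chr19:44400001-45000000, cluster 5 is chr19:52400001-53900000 and cluster 6 is chr19:56500001-58800000. The intervals were set by position alone and took in 11530 of the 55385 bins of 1 kb that the signal tracks hold on chromosome 19. The other 43855 bins are called the rest of chromosome 19, and the tracks hold 2820626 bins in all. Cluster 2 was the longest with 4584 bins and cluster 4 the shortest with 585. The libraries are CUT&RUN profiles, in which a nuclease tethered by an antibody releases the DNA lying under the antibody's target. In K562, an erythroleukaemia line, γH2AX was profiled 1 h after 6 Gy from a cobalt source (n = 2) and after 24 h of recovery (n = 2), the Polycomb mark H3K27me3 was profiled 1 h after the same dose (n = 1), and H2AX was profiled in untreated cells (n = 2). In HepG2, a hepatocellular carcinoma line, γH2AX was profiled 1 h after 6 Gy (n = 1) and H2AX in untreated cells (n = 2). For the libraries titled H2AX the antibody label names histone H4. They are used here as the background of untreated chromatin, whichever histone was bound. The labels do not say whether the replicates were grown or irradiated apart, so the spread that the p-values rest on is that between libraries and may be technical. No unirradiated γH2AX or H3K27me3 library was analysed here, so irradiation, antibody and library cannot be told apart in any comparison with H2AX.

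KRAB zinc finger proteins bind DNA through tandem C2H2 fingers, and their KRAB domain recruits the corepressor TRIM28, which brings the H3K9 methyltransferase SETDB1 to the bound site. Many of them silence transposable elements, and the genes, which arose by repeated tandem duplication, are themselves known for carrying H3K9me3 over their finger-coding exons. γH2AX is H2AX phosphorylated by the ATM, ATR and DNA-PK kinases over the chromatin beside a double-strand break. H3K27me3 is laid down by Polycomb repressive complex 2 and is characteristic of a different kind of silent chromatin from H3K9me3, which was not profiled here.

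A list of 193 genes of these clusters, drawn up from general knowledge, was matched in full to RefSeq, where 191 are protein-coding genes of chromosome 19. By their order there, the genes listed for cluster 1 run from ZNF627 to ZNF791, for cluster 2 from ZNF506 to ZNF254 and for cluster 3 from ZNF565 to ZNF573. Those listed for cluster 4 run from ZNF45 to ZNF180, for cluster 5 from ZNF613 to ZNF813 and for cluster 6 from ZNF787 to ZNF8. Between these end genes lie 222 protein-coding genes, 31 of them not on the list, such as PPP2R1A, a scaffold subunit of protein phosphatase 2A, in cluster 5 and USP29 and AURKC, a deubiquitinase and a meiotic kinase, in cluster 6. The RefSeq table is of the GRCh38.p14 build and the tracks are of hg19, so no gene was placed on a bin and the order is background only. Whether every listed gene, the end genes included, lies inside its hg19 interval was not checked.

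Promoters (250 bases before to 50 after the gene start, RefSeq, GRCh38.p14) were at hand for 163 of the genes, and some of them are identical over short stretches. Of these, 24 (14.7%) hold a stretch of 41 bases that is found letter for letter in a promoter of another gene that does not overlap it, against 43 of 1022 (4.21%) of the other promoters of chromosome 19. In cluster 2 the count is 13 of 27 (48.1%), in cluster 1 4 of 23 (17.4%), in cluster 5 4 of 29 (13.8%), in cluster 3 2 of 26 (7.69%), in cluster 6 1 of 44 (2.27%) and in cluster 4 0 of 14. A pair from cluster 1 and a pair from cluster 2 are printed 5′ to 3′ along the gene, all on chromosome 19. They are shown because their shared stretches are longer than the read length of 41 bp taken for 7 of the libraries and shorter than the 60 bp taken for the other 3, as described below. Capitals mark the bases of each promoter that lie in a stretch of at least 41 bases found in its partner. ZNF69, ZNF700 and ZNF85 lie on the plus strand and ZNF208 on the minus strand.
ZNF69: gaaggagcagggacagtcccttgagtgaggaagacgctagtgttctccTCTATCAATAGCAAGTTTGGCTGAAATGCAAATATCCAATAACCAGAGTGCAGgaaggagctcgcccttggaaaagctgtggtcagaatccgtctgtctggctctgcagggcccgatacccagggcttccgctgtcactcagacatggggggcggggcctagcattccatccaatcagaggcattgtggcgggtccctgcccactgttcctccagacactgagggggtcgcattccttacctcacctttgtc
ZNF700: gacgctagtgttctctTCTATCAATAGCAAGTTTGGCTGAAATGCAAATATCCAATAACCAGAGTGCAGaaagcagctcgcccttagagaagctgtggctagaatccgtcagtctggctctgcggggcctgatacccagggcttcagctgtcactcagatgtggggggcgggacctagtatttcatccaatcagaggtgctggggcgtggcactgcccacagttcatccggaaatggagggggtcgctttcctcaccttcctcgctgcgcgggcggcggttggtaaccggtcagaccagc
ZNF85: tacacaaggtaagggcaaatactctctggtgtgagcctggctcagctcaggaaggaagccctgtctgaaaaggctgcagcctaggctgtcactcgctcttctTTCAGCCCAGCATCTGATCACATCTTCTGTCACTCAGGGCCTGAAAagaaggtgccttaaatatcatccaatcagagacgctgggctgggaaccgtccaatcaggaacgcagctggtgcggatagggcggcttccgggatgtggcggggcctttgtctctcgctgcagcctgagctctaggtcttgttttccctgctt
ZNF208: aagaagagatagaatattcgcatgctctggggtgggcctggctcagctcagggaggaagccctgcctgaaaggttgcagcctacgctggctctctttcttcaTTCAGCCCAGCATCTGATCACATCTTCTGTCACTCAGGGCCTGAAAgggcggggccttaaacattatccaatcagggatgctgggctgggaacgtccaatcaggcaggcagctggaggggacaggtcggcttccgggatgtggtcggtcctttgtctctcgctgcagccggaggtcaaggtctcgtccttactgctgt
The shared stretch is 53 bases in the ZNF69 and ZNF700 pair and 46 bases in the ZNF85 and ZNF208 pair. The sources used here do not say how the alignment treated reads that match at more than 1 place, and no depth was read at these promoters.

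The whole tracks average 1.43 and 1.77 reads deep per base for K562 γH2AX at 1 h, 0.588 for K562 γH2AX 24 h replicate 2, 0.518 for HepG2 γH2AX and 1.09 for H3K27me3, against 0.667 and 0.666 for K562 H2AX and 0.620 and 0.637 for HepG2 H2AX. Read length was taken from the thin bins, those with a depth above 0 and below 0.25. Between 59.0% and 65.3% of them held, once depth times bin length was rounded to a whole number, an exact multiple of 60 bp or of 41 bp, depending on the library, and at most 1.04% a multiple of the other. The 60 bp step was seen in the K562 1 h γH2AX and H3K27me3 libraries and the 41 bp step in all the others. This step and the group therefore cannot be told apart where the K562 1 h libraries are compared with H2AX, with 24 h or with HepG2. The K562 24 h and HepG2 γH2AX libraries share the 41 bp step with the H2AX libraries. K562 γH2AX 24 h replicate 1 was left out of the tests, because its track reads 0 in every bin of the genome where the mean 1 h depth is above 1.642. Such bins make up 41.2% of the clusters and 42.9% of the rest of chromosome 19, while replicate 2 reads 0 in 1.78% of cluster bins and 1.43% of the others. Every 24 h value below is therefore of replicate 2 alone. Levels are given as depth relative to the mean of the library or, where stated, to the rest of chromosome 19 in the same library.

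H3K27me3 was scarce in all 6 clusters (the plot of read depth by cluster and library). Its depth relative to the rest of chromosome 19 was 0.260 in cluster 1, 0.0719 in cluster 2, 0.0875 in cluster 3, 0.188 in cluster 4, 0.193 in cluster 5 and 0.25 in cluster 6, and 0.147 over all clusters together. The K562 H2AX libraries stood at 0.825 and 0.884 over the same bins. No H3K27me3 read at all was held by 40.3% of the cluster bins, against 17.7% of the bins elsewhere on the chromosome.

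**Figure D1:**
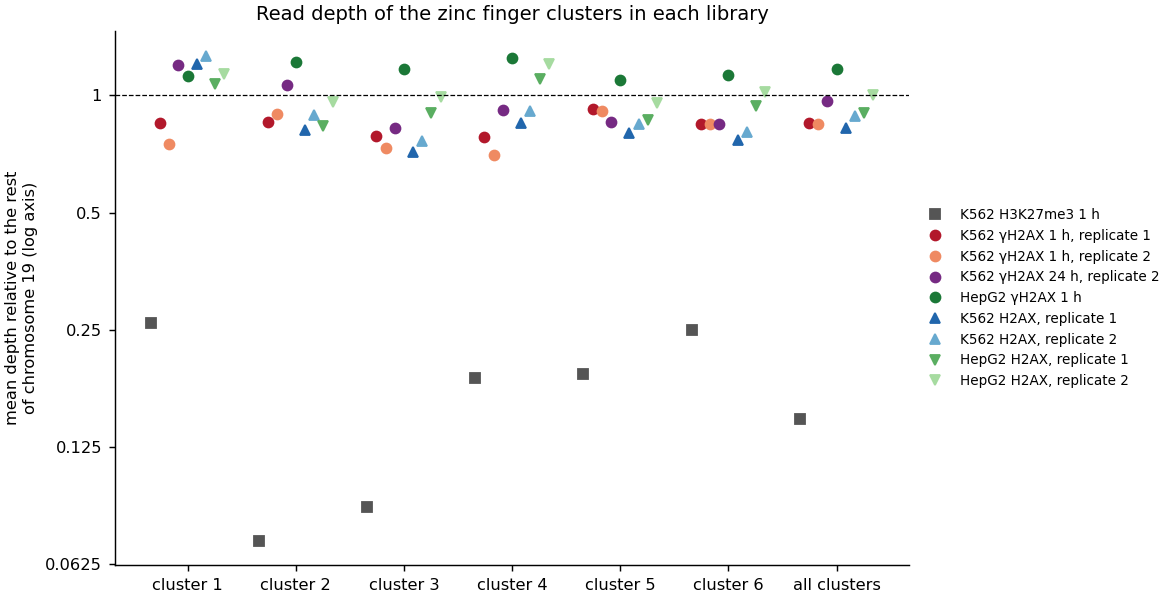
Mean read depth of each cluster, and of all clusters together, relative to the rest of chromosome 19 in the same library (log axis, dashed line at 1); a point is a library, and K562 γH2AX 24 h replicate 1 is not drawn. The H3K27me3 points lie between 0.0719 and 0.260, below every other library, and the HepG2 γH2AX points lie above 1 in all 6 clusters.

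H3K27me3 over K562 H2AX fell in 6 of 6 clusters against the rest of chromosome 19 in a limma fit over the clusters and 1-Mb windows of the genome (52.2% of all 2782 features were called lower, 26.8% higher). The log2 fold change was -2.89 (SE 0.15, limma adjusted p = 2.57e-07) in cluster 2 and -2.52 (SE 0.14, limma adjusted p = 2.59e-07) in cluster 3. It was -1.48 (SE 0.13, limma adjusted p = 5.88e-06) in cluster 6, with clusters 1, 4 and 5 in between at -2.05, -1.97 and -1.84. In 100-kb windows, 113 of 115 cluster windows were lower in H3K27me3 over H2AX and 1 was higher, against 229 lower and 155 higher of 436 windows in the rest of chromosome 19 (genome-wide, 61.7% lower and 26.7% higher). The median log2 fold change was -2.87 in the cluster windows, -0.51 in the rest of chromosome 19 and -1.27 over all windows tested. Scaling by the median of ratios moves the H3K27me3 library by 1.15 on the log2 scale, and 101 cluster windows were then lower and 6 higher. The H3K27me3 group is a single library, so its test borrows the spread of the groups that have 2.

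γH2AX at 1 h gave a different picture, since over the clusters as a whole it did not differ from H2AX beyond the spread of the libraries. Its depth relative to the rest of chromosome 19 was 0.847 and 0.843 in the 1 h libraries, against 0.825 and 0.884 in the K562 H2AX libraries, and these pairs overlap. Cluster 1 stood furthest apart: there the 1 h libraries stood at 0.851 and 0.748, against 1.2 and 1.26 in K562 H2AX, without overlap. The groups did not overlap in cluster 4 either, with γH2AX lower (0.782 and 0.704 against 0.848 and 0.910). In clusters 5 and 6 they did not overlap and γH2AX was higher. The values were 0.920 and 0.912 against 0.800 and 0.845 in cluster 5, and 0.846 and 0.842 against 0.766 and 0.806 in cluster 6. Only in clusters 2 and 3 did the groups overlap. γH2AX over H2AX fell in 1 of the 6 clusters, cluster 1, with a ratio 0.661 times that of the rest of chromosome 19 (log2 fold change -0.60, SE 0.11, limma adjusted p = 0.00387). The fit called 14.8% of all features lower and 41.7% higher. Of the 44 1-Mb windows in the rest of chromosome 19 it called 12 lower and 9 higher, so a lower segment is not particular to the clusters. Cluster 4 gave -0.23 (SE 0.11, limma adjusted p = 0.114). Clusters 2, 3, 5 and 6 gave 0.03, 0.04, 0.15 and 0.10, with limma adjusted p between 0.274 and 0.824. Cluster 4 passed as well with the library mean as reference (-0.40, limma adjusted p = 0.00149), with the rest of the same arm as reference (-0.31, adjusted p = 0.0375) and without K562 γH2AX 1 h replicate 1 (-0.30, adjusted p = 0.0158). With all 10 libraries, the faulty track included, no cluster passed (cluster 1, limma adjusted p = 0.102), and with the median of the bins in place of the mean clusters 2, 3, 5 and 6 were higher, at 0.37, 0.39, 0.32 and 0.42.

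K562 H2AX itself is uneven over the clusters. Relative to the library mean it was 1.69 and 1.65 in cluster 1, while in the other clusters it lay between 0.998 and 1.19. HepG2 H2AX did not show cluster 1 so far above the others: it was 0.825 and 0.831 there and 0.851 and 0.883 in cluster 4. The 1 h γH2AX level of cluster 1, 0.961 and 0.958 of the library mean, was within the range of the other clusters, which ran from 0.883 to 1.17. The part of this high H2AX level in the cluster 1 result was not tested.

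Over 100-kb windows, 36 of the 115 cluster windows tested were lower in γH2AX at 1 h and 9 were higher, which is 31.3% and 7.83%. The background was 37.7% lower and 33.3% higher over all 27612 windows, and 221 lower and 101 higher of 436 in the rest of chromosome 19, so neither share of the clusters exceeds it. The windows inside the clusters were closer to one another, with an SD of the log2 fold changes of 0.34 in the clusters and 0.77 in the rest of chromosome 19. They ran from -1.33 to 0.83 in the clusters and from -2.29 to 0.97 in the rest. Cluster 1 held 9 lower windows of 10, cluster 4 5 of 6, cluster 5 8 of 15, cluster 2 7 of 45, cluster 6 5 of 23 and cluster 3 2 of 16. Higher windows were found in cluster 5 (4), cluster 6 (3) and cluster 2 (2). The number of calls depends on single libraries. Without K562 H2AX replicate 1 there were 2 higher and 21 lower windows, without K562 H2AX replicate 2 there were 1 and 22, and without replicate 1 or replicate 2 of HepG2 H2AX 3 and 26. Without K562 γH2AX 1 h replicate 1 there were 20 and 45, without replicate 2 there were 9 and 75, and with all 10 libraries 0 and 11.

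**Figure D2:**
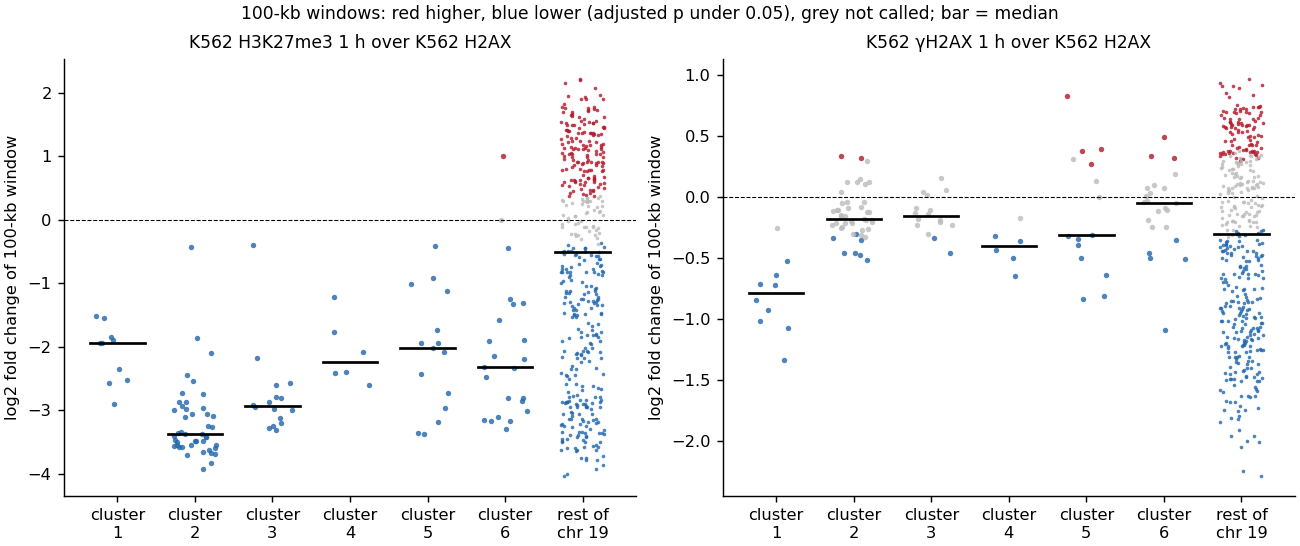
Log2 fold changes over K562 H2AX of 100-kb windows (points; red higher, blue lower at adjusted p under 0.05, grey not called; bar at the median) in each cluster and in the rest of chromosome 19, for H3K27me3 on the left and γH2AX at 1 h on the right. H3K27me3 windows are low in every cluster with a single red point in cluster 6, while the γH2AX windows lie between -1.33 and 0.83.

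Of the 5 lowest windows, 4 lie in cluster 1 and 1, the second lowest, in cluster 6. The lowest window, in cluster 1 at 12300001 to 12400000, stood at 0.733 and 0.613 of the library mean in the 1 h γH2AX libraries, against 1.77 and 1.77 in K562 H2AX. Its 24 h γH2AX level was 1.26, HepG2 γH2AX was 0.721 against 0.854 and 0.820 in HepG2 H2AX, and H3K27me3 was 0.571. The 1 h values are thus the low ones, and they do not overlap with any of the K562 values at 24 h or in H2AX (log2 fold change over H2AX -1.33, SE 0.12, limma adjusted p = 0.000181). In cluster 1 the windows from 12400001, 12500001 and 12100001 came next at -1.07, -1.02 and -0.92, with H3K27me3 levels of 0.449, 0.410 and 0.337.

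One window of the clusters carried H3K27me3 at a high level and was lower in γH2AX. The first window of cluster 6, 56500001 to 56600000, held H3K27me3 at 2.45 of the library mean. Its γH2AX was 0.598 and 0.481 at 1 h, against 1.24 and 1.15 in K562 H2AX (log2 fold change -1.09, SE 0.13, limma adjusted p = 0.000251). The next window, from 56600001, had H3K27me3 at 0.735 and γH2AX at 1.39 and 1.54 at 1 h, against 1.09 and 0.957 in K562 H2AX, and was among the 5 highest at 0.50 (SE 0.12, limma adjusted p = 0.00527). These neighbours give both extremes of cluster 6.

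Cluster 5 was the most divided. Its highest window, 53100001 to 53200000, stood at 1.97 and 2.61 in the 1 h γH2AX libraries, against 1.30 and 1.2 in K562 H2AX, with 0.0769 for H3K27me3. At 24 h it stood at 0.959, and in HepG2 at 0.776 for γH2AX against 0.668 and 0.703 for H2AX. This was the highest log2 fold change over H2AX of any cluster window, at 0.83 (SE 0.14, limma adjusted p = 0.0010). The windows from 53200001 and 53400001 were also higher, at 0.40 and 0.38, whereas the window from 52900001 fell to 0.551 and 0.635 at 1 h, against 1.12 and 1.07 in K562 H2AX. The last 4 windows of the cluster, from 53500001 on, were all lower and held H3K27me3 between 0.416 and 0.802. In cluster 2 the highest window was that from 24200001, at 1.45 and 1.72 for 1 h γH2AX against 1.23 and 1.24 for K562 H2AX (log2 fold change 0.34, limma adjusted p = 0.0310). The higher calls from 53400001 and 24200001 were lost without either H2AX replicate of either line, that from 53200001 without either K562 H2AX replicate and that from 56600001 without K562 H2AX replicate 2; in no case did the sign turn.

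**Figure D3:**
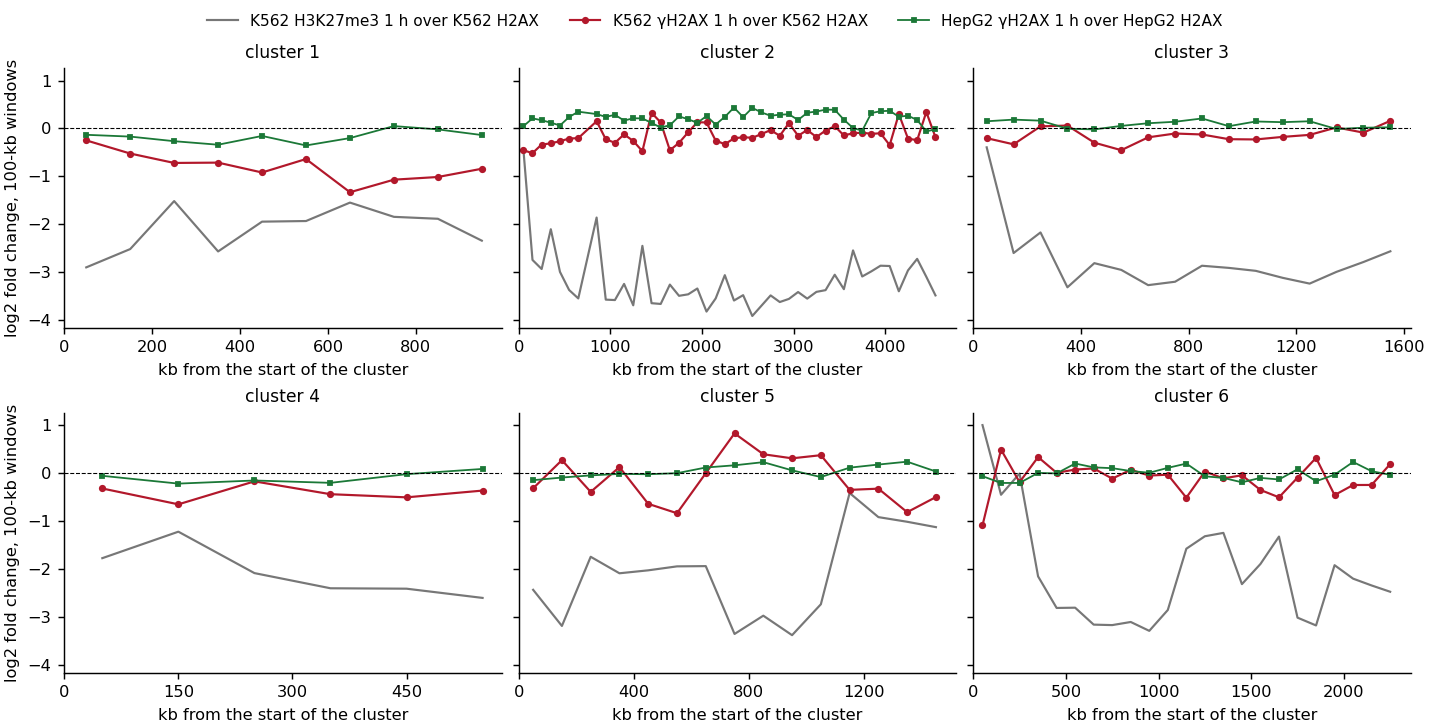
Log2 fold changes of 100-kb windows along each cluster, by distance from its start in kb, for K562 H3K27me3 over H2AX (grey), K562 γH2AX at 1 h over H2AX (red) and HepG2 γH2AX at 1 h over H2AX (green). The K562 γH2AX line runs below the HepG2 line through cluster 1, and in cluster 5 it peaks at 0.83 where the H3K27me3 line is at -3.36.

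Windows of 10 kb show how the marks are related inside the clusters. Spearman's rho between γH2AX at 1 h and H3K27me3, each over a different K562 H2AX replicate, was -0.476 over 1139 cluster windows and -0.805 over 4349 windows of the rest of chromosome 19. By cluster it was -0.756 in cluster 1, -0.736 in cluster 5, -0.591 in cluster 6, -0.589 in cluster 4, -0.402 in cluster 3 and -0.237 in cluster 2. No H3K27me3 read was held by 52.6% of the bins of cluster 2 and 45.4% of those of cluster 3, against 21.1% in cluster 1. The part of such empty bins in the rho values was not tested. The rho values are descriptions over neighbouring windows of the same libraries. The SD of log2 γH2AX over H2AX was 0.54 in the clusters and 0.94 elsewhere, and Spearman's rho between the 1 h replicates, each over a different H2AX replicate, was 0.702 in the clusters and 0.906 elsewhere.

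γH2AX at 1 h was higher where H3K27me3 was low in the clusters too, but it rose less than elsewhere on chromosome 19. Windows with H3K27me3 below 0.25 of the library mean made up 82.4% of cluster windows (939) and 41.7% of the others (1815). In these windows the median log2 of 1 h γH2AX over H2AX was -0.13 in the clusters (-0.24 and -0.03 in the replicates), against 0.44 in the rest of chromosome 19 (0.20 and 0.65). γH2AX was above H2AX in 38.1% of these cluster windows and in 77.5% of the others. In windows with H3K27me3 over the library mean the medians lay close together, at -1.30 in 44 cluster windows and -1.37 in 1704 others. By cluster, the median of H3K27me3-poor windows was -0.53 in cluster 1, -0.35 in cluster 4, -0.17 in cluster 3, -0.16 in cluster 2, 0.00 in cluster 6 and 0.21 in cluster 5. In HepG2, by the same K562 classes, the medians of log2 γH2AX over H2AX in H3K27me3-poor windows were 0.09 in the clusters and -0.26 in the rest, and with H3K27me3 over the mean -0.07 and -0.18. At 24 h in K562 they were -0.21 and -0.44 in H3K27me3-poor windows, and -0.29 and -0.41 with H3K27me3 over the mean. The steep fall with H3K27me3 that K562 shows at 1 h is thus not seen in the medians of either.

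**Figure D4:**
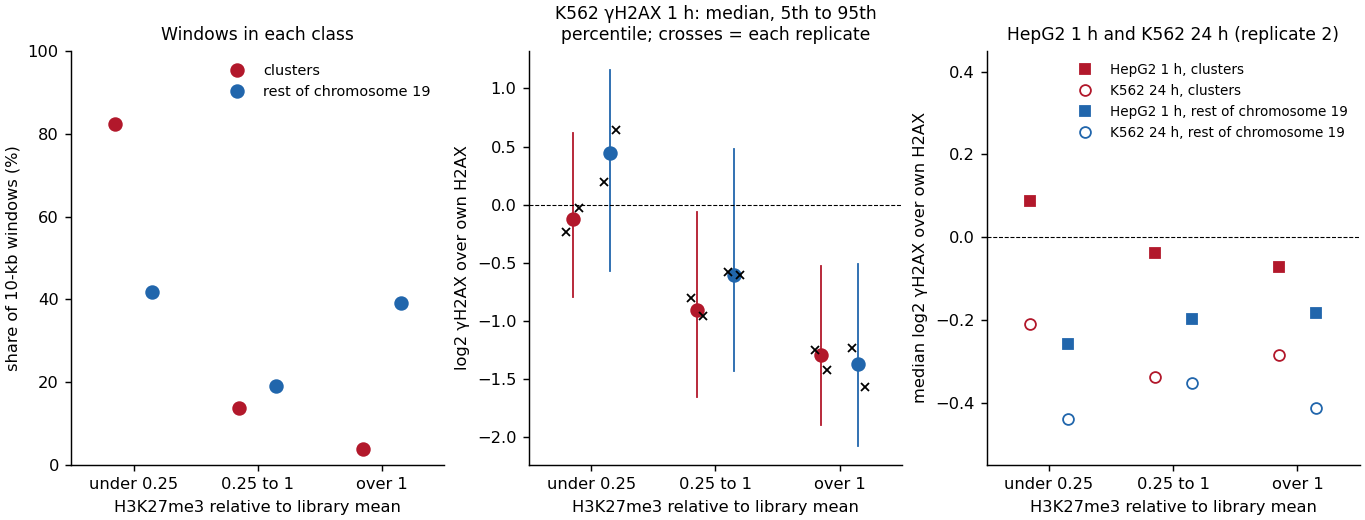
Windows of 10 kb in 3 classes of H3K27me3 level (relative to the library mean), clusters in red and rest of chromosome 19 in blue: share of windows in percent (left), log2 of K562 1 h γH2AX over H2AX as median with 5th to 95th percentile and the replicate medians as crosses (middle), and median log2 for HepG2 1 h (squares) and K562 24 h (open circles; right). In the class under 0.25 the cluster median at 1 h is -0.13 against 0.44 elsewhere, and in the class over 1 the medians are -1.30 and -1.37.

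To set that difference beside the spread of the libraries, the cluster fit was repeated with only the H3K27me3-poor windows on both sides, an alternative chosen after the data were seen. The libraries and windows are those in which the difference was found, so this fit is no independent test of it. γH2AX at 1 h over H2AX then fell in 4 of 6 clusters against the H3K27me3-poor rest of chromosome 19 (background 3.81% lower and 14.2% higher of 2599 features): -0.88 in cluster 1 (SE 0.12, limma adjusted p = 0.000785), -0.58 in cluster 4 (SE 0.13, adjusted p = 0.00844) and -0.53 in each of clusters 2 and 3 (SE 0.13, adjusted p = 0.0152 and 0.0164). Cluster 6 gave -0.35 (limma adjusted p = 0.0701) and cluster 5 gave -0.23 (limma adjusted p = 0.236). In levels, these windows stood at 1.01 and 1.17 of the library mean in the clusters and 1.71 and 2.19 in the rest of chromosome 19 for 1 h γH2AX, while K562 H2AX stood at 1.13 and 1.13 in the clusters and 1.46 and 1.35 in the rest. Without K562 H2AX replicate 2 cluster 1 alone passed, and with all 10 libraries none did. With a class limit of 0.1 cluster 4 did not pass (-0.34, limma adjusted p = 0.0852), and with a limit of 0.5 clusters 1 to 4 passed.

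In HepG2 the γH2AX level of the clusters was above that of the rest of chromosome 19. Its depth relative to the rest of chromosome 19 was 1.17 over all clusters, against 0.900 and 1.00 in HepG2 H2AX, and by cluster it was 1.12, 1.22, 1.17, 1.24, 1.10 and 1.13, in each above 1. In clusters 2 to 6 it lay above both HepG2 H2AX libraries, and in cluster 1 between them (1.07 and 1.13). Over HepG2 H2AX, the median log2 fold change was 0.23 in the 6 clusters and 0.22 over all 2782 features of the fit. It was -0.04 in the 44 1-Mb windows of the rest of chromosome 19. The clusters thus lay near the genome median. In 100-kb windows the medians were 0.09 in the clusters, -0.23 in the rest and 0.01 over all windows. The log2 fold changes against the rest of chromosome 19 were all positive, from 0.03 in cluster 1 to 0.42 in cluster 2 (with the library mean as reference, clusters 1, 4 and 6 turn negative), but 0 of 6 clusters passed the limma test (lowest adjusted p = 0.222; 0.0% of all features called in either direction; 1 cluster at an unadjusted p under 0.05). The count changes with the spread used: with the HepG2 libraries alone, 4 clusters were higher (clusters 2, 3, 5 and 6, limma adjusted p from 2.10e-06 to 0.0173), and leaving out either K562 γH2AX 1 h library gave 1. HepG2 γH2AX is a single library with no spread of its own, so the fit of the HepG2 libraries alone rests on the spread of the 2 H2AX libraries. In 100-kb windows 0 of 115 were called and 5 had an unadjusted p under 0.05 (0.0% and 0.0% called of all windows); 29 were called with the HepG2 libraries alone, 25 of them higher, and 22 when either K562 1 h library was left out. The 3 windows of lowest p among those leaning higher all lay in cluster 2, the first of them from 22300001, at 0.878 for γH2AX against 0.625 and 0.655 for H2AX. The 3 of lowest p among those leaning lower all lay in cluster 1, the first from 12200001, at 0.634 against 0.818 and 0.834.

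The direct comparison of the lines, each over its own H2AX, gave negative values in all 6 clusters (with the median of the bins, clusters 3, 5 and 6 turn positive), with log2 differences between -0.63 in cluster 1 (SE 0.17, limma adjusted p = 0.0541) and -0.10 in cluster 6 (SE 0.17, adjusted p = 0.778). In this limma fit 0 clusters passed and 1 had an unadjusted p under 0.05 (background 3.38% lower and 5.9% higher), and 1 passed with the compared libraries alone or with the library mean as reference. Over H3K27me3-poor windows, again an alternative chosen after seeing the data and with classes taken from K562, clusters 1 to 4 passed at -0.96, -1.01, -0.87 and -0.82 (adjusted p from 0.0249 to 0.0363; background 4.69% lower and 2.08% higher). That count was 0 without HepG2 H2AX replicate 1, 2 without HepG2 H2AX replicate 2 or K562 H2AX replicate 2, 6 without K562 γH2AX 1 h replicate 1 and 0 with all 10 libraries. In 100-kb windows the K562 ratio was lower than that of HepG2 in 22 and higher in 2, or 19.1% and 1.74% of the cluster windows, against 29.3% and 16.4% of all windows. Cluster 1 held 6 of the lower windows, cluster 2 9, cluster 5 4, cluster 6 2 and cluster 3 1; the higher ones are those from 53100001 (0.67) and 56600001 (0.70). Between 6 and 9 windows were called when any H2AX replicate was left out, 58 without K562 1 h replicate 1, 80 without replicate 2 and 0 with all 10 libraries.

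**Figure D5:**
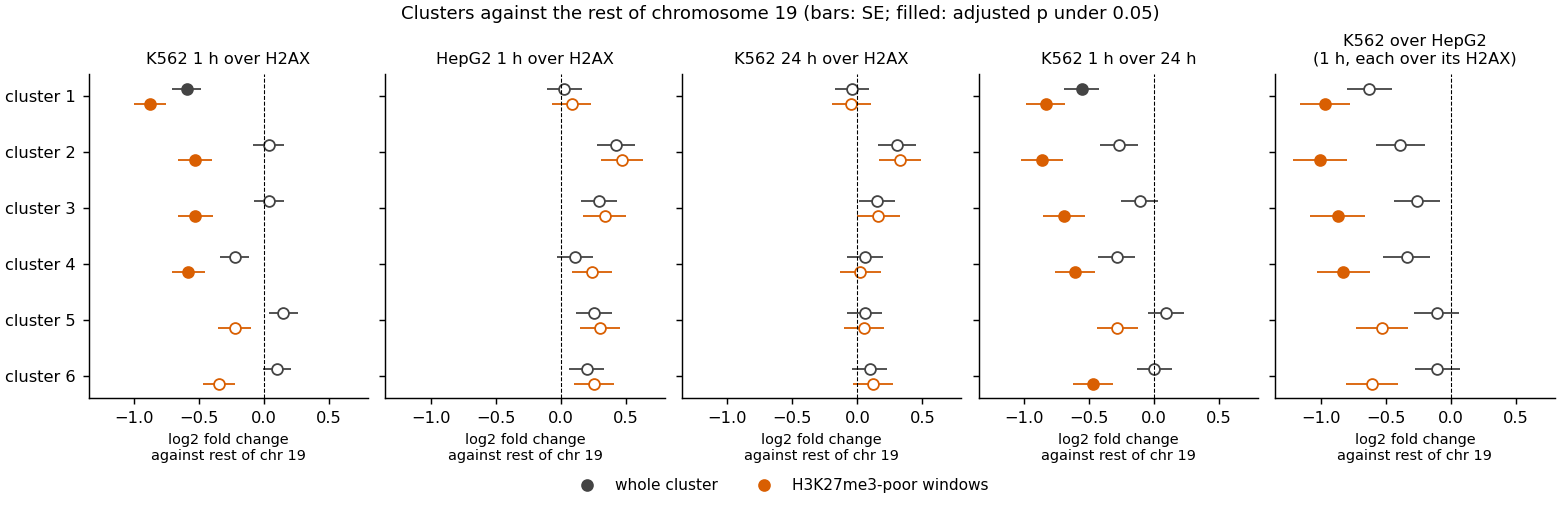
Log2 fold changes of each cluster against the rest of chromosome 19 (points with SE bars; filled where the adjusted p is under 0.05) for whole clusters (grey) and for their H3K27me3-poor windows against those of the rest (orange), in 5 comparisons. In the K562 1 h panel cluster 1 is filled at -0.60, and the H3K27me3-poor points of clusters 1 to 4 are filled at -0.88 to -0.53; no point is filled in the HepG2 and 24 h panels.

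Between the time points, γH2AX differed in cluster 1. γH2AX relative to the rest of chromosome 19 was 0.851 and 0.748 there at 1 h and 1.2 at 24 h. The log2 difference of 1 h over 24 h was -0.56 (SE 0.13, limma adjusted p = 0.0102), which made 1 of 6 clusters lower (background 35.7% lower and 9.85% higher). With the 1 h and 24 h libraries alone, or with the median of the bins, no cluster passed, and without K562 γH2AX 1 h replicate 1 the count was 2. The other clusters gave between -0.29 and 0.09, with limma adjusted p of at least 0.118. In 100-kb windows 19 were higher at 1 h than at 24 h and 12 lower (background 20.5% higher and 36.8% lower); median-of-ratios scaling gives 25 higher and 6 lower. Of the 12 lower windows cluster 1 held 7, and of the 19 higher ones clusters 5 and 6 held 7 each. Between 17 and 18 windows were called when any H2AX replicate was left out, 52 without 1 h replicate 1, 70 without 1 h replicate 2 and 11 with the 1 h and 24 h libraries alone. In H3K27me3-poor windows, chosen after the data were seen, the clusters stood at 1.01 and 1.17 of the library mean at 1 h and 0.973 at 24 h. The rest of chromosome 19 stood at 1.71 and 2.19 at 1 h and 1.04 at 24 h in such windows. In clusters 3 to 6 both 1 h levels lay above the 24 h level, and in clusters 1 and 2 they lay on either side of it. Relative to that rest, 1 h was lower than 24 h in 5 of 6 clusters, from -0.86 in cluster 2 to -0.47 in cluster 6 (background 51.0% lower and 9.16% higher). With the 1 h and 24 h libraries alone 3 passed, and with all 10 libraries none did.

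γH2AX at 24 h over H2AX showed no called cluster. Its level relative to the rest of chromosome 19 was 1.2, 1.06, 0.824, 0.918, 0.856 and 0.842 in clusters 1 to 6. The log2 fold changes over H2AX lay between -0.04 and 0.31, 0 of 6 passed the limma test and 0 had an unadjusted p under 0.05, with a background of 49.5% higher and 0.0% lower. In 100-kb windows 0 of 115 passed and 39 had an unadjusted p under 0.05 (0.0% called in either direction over all windows). Leaving out either 1 h replicate gave 68 called windows, 67 of them lower, and the 24 h and H2AX libraries alone gave 69, 68 of them lower. Cluster 2 was higher with those libraries alone (0.31, limma adjusted p = 0.00684), and with the library mean as reference clusters 1, 4, 5 and 6 were lower, at -0.33, -0.34 and -0.30 in clusters 4 to 6.

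The edges of the intervals were compared over 200 kb on each side, as a description with no test, with fewer bins outside the right border of cluster 2 (101) and inside that of cluster 4 (185). At 8 of the 12 borders H3K27me3 was lower inside the cluster than outside, and at 8 γH2AX at 1 h over H2AX was lower inside, in both replicates each time. These were not all the same borders. H3K27me3 alone was lower inside at the right border of cluster 3 and the left borders of clusters 5 and 6. γH2AX alone was lower inside at the right borders of clusters 1 and 6 and the left border of cluster 3. The steepest drop in γH2AX was at the right border of cluster 1, with log2 ratios of -0.97 inside and 0.07 outside, while H3K27me3 there was 0.345 inside and 0.249 outside. The left border of cluster 3 was similar, at -0.29 inside and 0.72 outside for γH2AX and 0.337 and 0.181 for H3K27me3. The opposite was seen at the left border of cluster 6, at -0.15 inside and -1.37 outside for γH2AX with H3K27me3 at 1.60 and 1.79, and at the right border of cluster 3, at 0.05 inside and -0.85 outside with H3K27me3 at 0.129 and 0.815. In HepG2 the γH2AX ratio was higher inside at 8 borders, and at 24 h in K562 at 6.

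The authors' peaks of γH2AX at 1 h were sparser in the clusters than elsewhere on the chromosome. The lists, deposited per library, hold 86 and 131 peaks in the clusters and 578 and 1239 in the rest, which is 7.46 and 11.4 peaks per Mb of clusters against 13.2 and 28.3 per Mb of the rest. Over all 2820626 bins of the genome they hold 41947 and 46072 peaks. These totals are closer to each other than the counts in the rest of chromosome 19. The reference, and with it the gap, thus differs between the replicates. Peaks covered 0.697% and 1.18% of the clusters and 1.36% and 4.64% of the rest. Cluster 5 was the densest at 14.7 and 25.3 peaks per Mb, and cluster 3 the sparsest at 1.92 and 4.48. The authors' median fold was 1.85 and 1.74 in the clusters and 1.75 and 1.74 in the rest. Only called peaks enter these medians, so they do not compare the height of the signal. The highest fold was 3.57 and 3.64 in the clusters and 4.14 and 3.97 in the rest. The median width in the list of replicate 2 was 780 bp in the clusters and 1056 bp in the rest. At least 1 base was shared with a peak of the other list by 47.7% of the replicate 1 peaks and 31.3% of the replicate 2 peaks in the clusters, and by 69.9% and 29.8% in the rest.

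Few of these peaks pass a stricter limit. With q under 0.05, taken from the authors' −log10 q column, 6 and 16 peaks remain in the clusters, which is 0.520 and 1.39 per Mb, against 33 and 149 in the rest, which is 0.752 and 3.40 per Mb. The highest fold in a cluster was 3.64, at 56597448 to 56598197 in cluster 6 in the list of replicate 2, inside the window with high H3K27me3 from 56500001, near its right end. H3K27me3 over the bins of the peak was 0.028 of the library mean. Over its bins K562 γH2AX stood at 2.26 and 3.16 of the library mean at 1 h, against 0.988 and 0.756 for K562 H2AX. HepG2 γH2AX stood at 0.158 there, against 0.363 and 0.708 for HepG2 H2AX. In the list of replicate 1 the highest was 3.57, at 53600681 to 53600981 in cluster 5, a peak of 301 bases whose bin stood at 1.74 and 1.30 for K562 γH2AX at 1 h, against 0.738 and 0.492 for K562 H2AX. The lists of K562 γH2AX at 24 h (8 and 13 peaks in all) and of HepG2 γH2AX (170 peaks) hold 0 peaks on chromosome 19, inside or outside the clusters, and they have the layout of narrow peaks where the 1 h lists have that of broad peaks. The sources used here do not name the control behind the fold values.

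Part of cluster 2 was thinly covered in K562. The window at 20600001 to 20700000 stood at 0.266 and 0.387 for K562 γH2AX at 1 h and 0.338 at 24 h, and at 0.305 and 0.267 for K562 H2AX. In HepG2 it stood at 0.790 for γH2AX and at 0.620 and 0.647 for H2AX, close to the cluster's own mean of 0.643 and 0.706. The window before it, from 20500001, stood at 0.120 and 0.128 for K562 H2AX and was the 1 window of 116 that the filter on low H2AX left out.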

How the data were processed

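The signal tracks were deposited by the authors and were summarised for this work as mean read depth per base in bins of 1 kb; this coverage is not scaled to library size. Per the submitters' processing notes, BWA 0.7.12, SAMtools and MACS2 were used with hg19; no settings are given. The authors' peak lists give, per the layout of the deposited files, a score, a fold enrichment, and −log10 p and −log10 q of each peak. The score was not used.

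Bins were set relative to the mean over their library, and windows and clusters were averaged over bins. Clusters were then divided by the rest of chromosome 19. log2(level + 0.05) was fitted with limma 3.58.1 in R 4.3.3, with an intensity trend, 6 group means and 9 libraries, which leaves 3 residual degrees of freedom. P-values were Benjamini-Hochberg adjusted over all features of a fit, and called under 0.05. An exact permutation test of 2 libraries against 2 cannot go below 0.333. Windows of 100 kb needed data in 50% of their bins and an H2AX level of at least 0.25 in each line; the cluster fit also held the 1-Mb windows of the genome outside the clusters. Fold changes of low values are understated by the added 0.05.

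The members and lists were chosen with earlier results of these data known. Every cluster was named. Among called windows, those at the 2 ends of the K562 γH2AX 1 h over H2AX fold changes were named, 5 at each end; for comparisons with no call, the 3 of smallest p leaning each way qualified, of which the first of each is printed for HepG2. The peak named was that of highest fold in each cluster and list, of which the highest of each list is printed. The window from 52900001, the last 4 windows of cluster 5 and the windows from 20500001 and 20600001 were chosen after their values were seen. Depth limits single bins more than windows: the libraries average between 0.324 and 1.77 reads per base. Python 3.11.15 with numpy 2.4.6, pandas 2.3.3 and scipy 1.17.1 was used for the rest, and the fits were tested on simulated data.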

Additional observations from a re-analysis of the deposited data

Results flagged for a closer look

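γH2AX at 1 h over H2AX was compared between the lines, and over H3K27me3-poor windows the difference passed the limma test in 4 of the 6 clusters, all lower in K562 (background 4.69% lower and 2.08% higher). The classes were taken from K562 H3K27me3, an alternative chosen after the data were seen. In the rest of chromosome 19 this choice moved K562 1 h γH2AX from 1.13 and 1.28 of the library mean to 1.71 and 2.19. HepG2 γH2AX there moved from 0.649 to 0.598. In the clusters K562 moved from 0.956 and 1.08 to 1.01 and 1.17. The choice of windows is thus itself part of this difference. The log2 difference of K562 over HepG2 in H3K27me3-poor windows was -0.96 in cluster 1, -1.01 in cluster 2, -0.87 in cluster 3 and -0.82 in cluster 4. These 4 calls were all lost without HepG2 H2AX replicate 1 and with all 10 libraries.

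Of the 115 cluster windows of 100 kb, 22 were lower in K562 and 2 higher (background 29.3% lower and 16.4% higher). Between 6 and 9 were called when any 1 H2AX library was left out, 58 and 80 without replicate 1 or replicate 2 of K562 γH2AX at 1 h, and 0 with all 10 libraries. The windows given here were named for their K562 fold changes, which are part of this difference, so their values are a description. In cluster 1 the windows from 12300001, 12400001, 12500001 and 12100001 differed by -1.13, -1.12, -0.99 and -0.76. In cluster 6 the window from 56500001 differed by -1.03 and its neighbour from 56600001 by 0.70. In cluster 5 the window from 53100001 differed by 0.67.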

How the results depend on the processing

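H3K27me3 fell in 6 of 6 clusters under every alternative run. With 50-kb windows, of which there are more to call, the counts of called windows were 82 for K562 1 h over H2AX, 226 for H3K27me3, 61 for 1 h over 24 h and 51 for K562 over HepG2. With all 10 libraries they were 11 for K562 1 h and 0 for K562 over HepG2. The clusters called were then 0 for K562 1 h and 2 for 1 h over 24 h, and the counts over H3K27me3-poor windows were 0 for K562 1 h, 1 h over 24 h and K562 over HepG2. With only the libraries compared, the windows called were 29 for HepG2, 69 for 24 h and 11 for 1 h over 24 h. The clusters called were 4, 1 and 0 in the same order and 1 for K562 over HepG2, and the H3K27me3-poor counts were 4, 1 and 3. For K562 over HepG2, 1 cluster was called with a pseudocount of 0.25, with trimmed clusters and with the library mean as reference. The library mean as reference also gave 2 clusters for K562 1 h, 4 for 24 h and 2 for 1 h over 24 h. The median of bins gave 5 for K562 1 h and 0 for 1 h over 24 h, and the same-arm reference gave 2 for K562 1 h. Peaks with q under 0.05 numbered 6 and 16 in the clusters and 33 and 149 in the rest.

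Signs turned as follows, and the cause was not tested. With the library mean as reference, K562 1 h was -0.13, -0.13, -0.015 and -0.066 in clusters 2, 3, 5 and 6, HepG2 was -0.17, -0.10 and -0.0057 in clusters 1, 4 and 6, and 1 h over 24 h was 0.12 in cluster 3. K562 24 h was then -0.088, -0.24, -0.33, -0.34 and -0.30 in clusters 2 to 6. With the same-arm reference, cluster 3 was -0.039 for K562 1 h and cluster 6 -0.039 for 1 h over 24 h. With the median of bins, cluster 4 was 0.010 for K562 1 h, clusters 2 and 3 were 0.055 and 0.28 for 1 h over 24 h, and clusters 3, 5 and 6 were 0.055, 0.0030 and 0.12 for K562 over HepG2. With all 10 libraries, cluster 1 was 0.018 for 24 h and 0.63 over its H3K27me3-poor windows, and cluster 6 was -0.036 for 1 h over 24 h.

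Leaving out 1 library at a time gave 23 to 84 called windows for K562 1 h, 0 to 22 for HepG2, 0 to 68 for 24 h, 17 to 70 for 1 h over 24 h and 6 to 80 for K562 over HepG2. Called clusters ranged from 1 to 2 for K562 1 h and for 1 h over 24 h, from 0 to 1 for HepG2 and for 24 h, and from 0 to 2 for K562 over HepG2. Over H3K27me3-poor windows they ranged from 1 to 5 for K562 1 h, 0 to 1 for HepG2 and for 24 h, 4 to 6 for 1 h over 24 h and 0 to 6 for K562 over HepG2. Values that changed sign ranged from -0.027 to 0.095 in cluster 2 and from -0.0084 to 0.081 in cluster 3 for K562 1 h, from -0.012 to 0.067 in cluster 1 for HepG2, and from -6.71e-05 to 0.0064 in cluster 6 for 1 h over 24 h. Over H3K27me3-poor windows at 24 h they ranged from -0.10 to 1.21e-06 in cluster 1 and from -0.023 to 0.069 in cluster 4. Where 1 library of a group was left, it was assumed to vary like the other groups.

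Replicate numbers were not shown to pair libraries: deviations of same-numbered libraries correlated between -0.16 and 0.43 over the 6 pairs of groups. With the replicate number as a block, 2 clusters in place of 4 were called over H3K27me3-poor windows for K562 over HepG2 and 4 in place of 5 for 1 h over 24 h, and no other count of called clusters changed. The K562 γH2AX 24 h fold changes rest on 1 library, and the depth of 1-kb bins is too low to read single bins.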
